A study of Mus musculus with 8 samples.

Results

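The heat shock protein and J protein families were described in mouse brown adipose tissue, a fat that burns fuel to make heat. Their members were all genes of the mRNA table whose symbols begin with Hspa, Hspb or Dnaja to Dnajc followed by a digit, or with Hsp90, Hspd1, Hspe1 or Hsph1. There were 72 such genes among the 22552 listed. The Null mice carried no functional copy of mir-193b (mmu-mir-193b -/-), and the WT mice carried both (mmu-mir-193b +/+). All were 2 months old, of mixed 129SV::FVB/N::C57BL/6 background, with no further treatment in the labels. The allele was made by crossing mice with a floxed mir-193b and an MMTV-Cre transgene, which was then bred out. Poly(A) RNA of 3 Null and 3 WT samples was sequenced. The authors deposited 1 column per genotype of FPKM, a count of fragments scaled by transcript length and by library size. The headers name no replicate, so each column is taken to combine the 3 samples of its genotype. These columns are called the Null pool and the WT pool. They carry no SD, so every difference between genotypes stands without a check on replicates.

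Chaperones bind unfolded protein chains and help them to fold, to cross membranes or to be degraded. Proteins of the Hsp70 family (Hspa genes) work through cycles of ATP binding, J proteins (Dnaj genes) bring them their clients and start that cycle, and nucleotide exchange factors such as Hsph1 reset it. Hsp90 proteins act on nearly folded clients, Hsp60 and Hsp10 form a closed folding chamber in mitochondria, and small heat shock proteins (Hspb genes) hold unfolded proteins in solution. In the cytosol many of these genes are switched on by heat shock factor Hsf1. In the endoplasmic reticulum (ER) they are switched on by the unfolded protein response. Brown fat is packed with mitochondria, whose proteins are mostly imported from the cytosol by a motor built on the mitochondrial Hsp70.

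The genotype was checked on the microRNA libraries, 1 per genotype. miR-193b-3p, from Mir193b, and miR-365-3p, from Mir365-1, are shown with their seed, bases 2 to 8, in capitals (RefSeq, GRCm38.p6, chromosome 16, plus strand).
miR-193b-3p: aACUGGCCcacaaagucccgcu
miR-365-3p: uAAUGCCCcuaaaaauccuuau
The signal of miR-193b-3p was 11.5 in the Null library, against 3705 in the WT library. miR-365-3p, whose letters are also encoded by Mir365-2 on chromosome 11, was at 798 in the Null library, against 1442 in the WT library. The signal of miR-365-1-5p was 0.0821 in the Null library, against 11.8 in the WT library.

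The tissue label was checked on 12 brown adipocyte markers, all of which were measured. Ucp1, the uncoupling protein that makes heat, was at 2487 FPKM in the Null pool and 3016 FPKM in the WT pool. By 1.5-fold or more 3 of the 12 were higher in Null, Cox7a1, Cox8b and Adipoq, and 2 were lower, Elovl3 at 19.9% and Dio2 at 48.6% of WT. Of all 11597 measured genes, 7.87% were higher and 6.75% lower by that fold. Markers of other cells also differed between the pools, with 7 of 10 immune and 3 of 3 measured red cell markers higher and 2 of 3 measured Schwann cell markers lower, at median log2 ratios of 0.93, 1.48 and -0.75. Their part in the members' values was not tested. The FPKM columns summed to 590327 in Null and 508701 in WT. A value of 0 in such a table can be a failed estimate. In bulk tissue, fewer cells of a type and less RNA per cell cannot be told apart.

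Of the 72 members, 64 passed the filter of a mean of at least 1 FPKM. The 8 below it were Hspa1a, Dnajb7, Dnajb8, Dnajb13, Hspb9, Dnajc5b, Dnajc5g and Dnajc6. Dnajc5b and Dnajc5g were listed at 0 in both pools, and Dnajb8 was at 0.0873 FPKM in Null and listed at 0 in WT. The members were grouped by where their proteins work: 9 in the heat-inducible cytosolic class, 17 in the constitutive cytosolic class, 7 small heat shock proteins, 13 in the ER, 10 in mitochondria, and 16 others, mostly J proteins with specialised tasks.

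Mitochondrial chaperones made up the largest share of the family's transcripts in brown fat. Summed over its 10 genes, the mitochondrial class stood at 1727 FPKM in the Null pool and 1474 FPKM in the WT pool. That was 54.7% of all member FPKM in Null and 46.7% in WT. Dnajc15 alone set the direction of that difference: without it the class summed to 902 FPKM in Null and 1020 FPKM in WT. The constitutive cytosolic class summed to 599 FPKM in Null and 730 FPKM in WT, the ER class to 420 and 438 FPKM in Null and WT, and the small heat shock class to 133 and 220 FPKM in Null and WT. The heat-inducible cytosolic class was the least abundant, at 93.9 FPKM in Null and 110 FPKM in WT. All members together summed to nearly the same value, at 3158 FPKM in Null and 3156 FPKM in WT. That near equality depended on Dnajc15, at 825 FPKM in Null and 454 FPKM in WT. The sum of the other members was lower in Null. As a share, all members made up 0.535% of the Null column and 0.620% of the WT column.

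**Figure D1:**
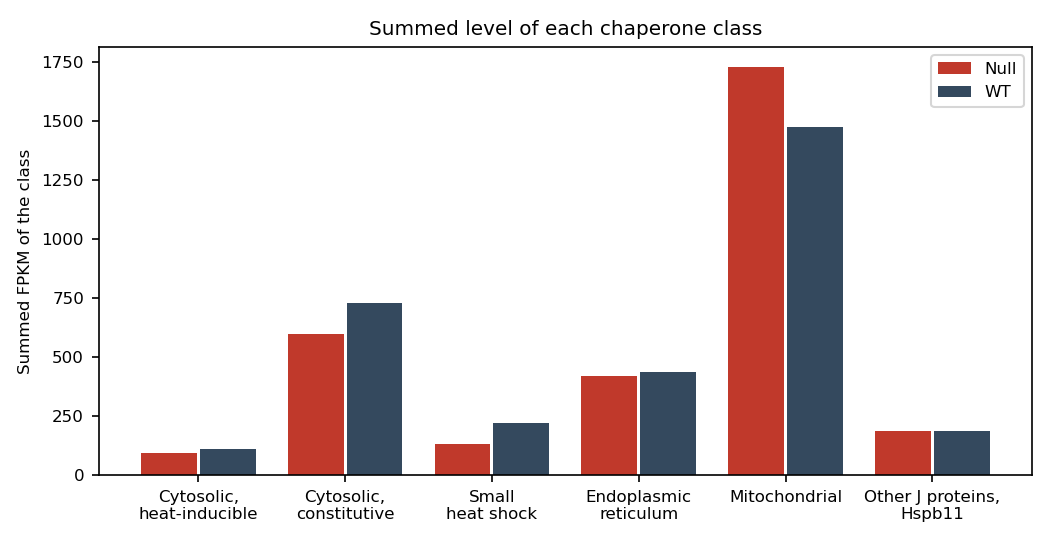
Summed FPKM (vertical axis) of each chaperone class in the Null pool (red) and the WT pool (dark), 1 combined value per genotype with no error. The mitochondrial class is the tallest in both pools, at 1727 FPKM in Null and 1474 FPKM in WT.

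Compared between genotypes, few members differed much. By 1.5-fold or more, 3 of the 64 measured members were higher in Null, which is 4.69%, where 7.87% of all 11597 measured genes were. In the other direction the count was 7 members, or 10.9%, where 6.75% of all genes were lower in Null. These shares rest on few genes and stand near those of the whole table. By 2-fold or more, 0 members were higher, where 2.17% of all genes were, and 2 were lower, where 1.65% of all genes were. The median log2 ratio was -0.12 over the members and 0.01 over all measured genes. With both columns rescaled to the same sum, which moved the median of all genes to -0.19, the counts were 2 higher, or 3.12% of members where 4.56% of all genes were, and 15 lower, or 23.4% where 15.8% of all genes were. Small positive ratios turn negative under that scaling.

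**Figure D2:**
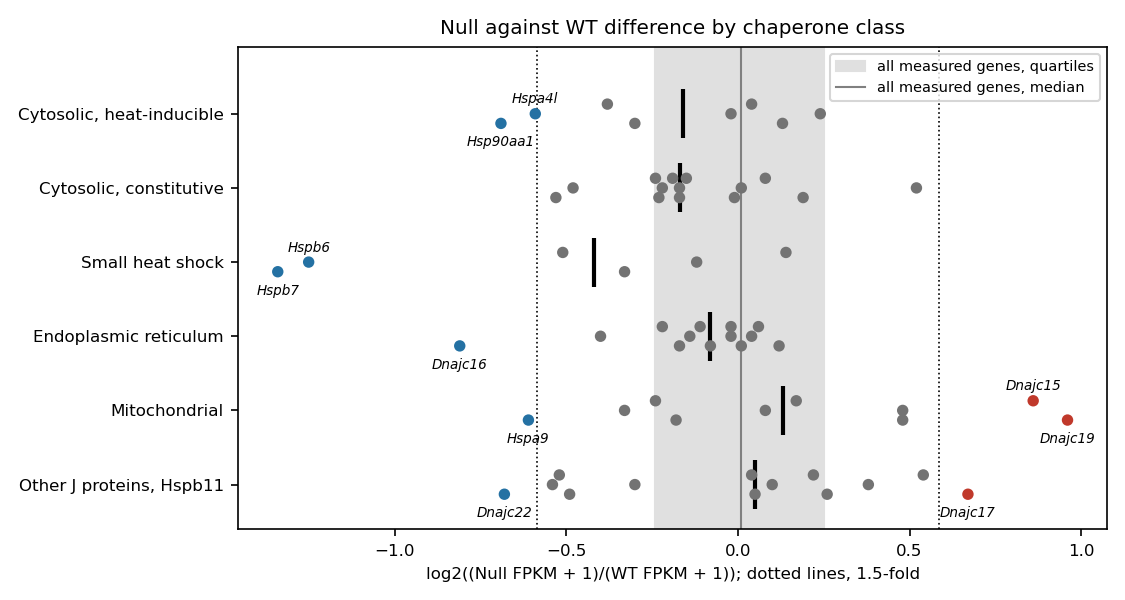
Log2 ratio of Null to WT (horizontal axis, pseudocount of 1 FPKM) for the 64 measured members, 1 point per gene, by class. Red points are higher and blue points lower in Null by 1.5-fold or more, black bars are class medians, and the grey band spans the quartiles of all measured genes, -0.24 to 0.25; the mitochondrial class spreads to both sides, from -0.61 to 0.96.

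The mitochondrial class held members that differed in opposite directions. Dnajc15, a J protein of the inner membrane known to restrain respiratory complex I, was at 825 FPKM in Null, against 454 FPKM in WT, a ratio of 1.82. Its log2 ratio of 0.86 was 0.59 with quantile normalization, only just past the 1.5-fold limit of 0.58. With the columns rescaled to the same sum that ratio was 0.65. Dnajc15 was the most abundant member of all in Null and the second after Hspa9 in WT. Dnajc19, a J protein of the import motor and a relative of Dnajc15, was at 36.2 FPKM in Null and 18.2 FPKM in WT, a ratio of 1.99. The Dnajc19 gene overlaps Fxr1 in RefSeq. Hspa9, the mitochondrial Hsp70 that both J proteins serve, was lower in Null, at 322 FPKM, against 490 FPKM in WT, or 65.6% of WT. Dnajc15 and Dnajc19 thus stood higher and Hspa9 lower in the Null pool. Timm44, which anchors Hspa9 to the import channel, and the mitochondrial folding gene Grpel1 had log2 ratios of 0.05 and -0.03.

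The mitochondrial folding chamber showed a similar divergence on a smaller scale. Hspe1, which encodes the Hsp10 lid, was at 168 FPKM in Null and 120 FPKM in WT (log2 ratio 0.48). Hspd1, which encodes the Hsp60 chamber, was at 96.4 FPKM in Null and 121 FPKM in WT (log2 ratio -0.33). Neither gene passed 1.5-fold. Lid transcripts stood at 1.74 times the level of chamber transcripts in Null and at 0.988 times in WT.

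Those 2 genes lie head to head on mouse chromosome 1, and their 5' ends overlap in RefSeq. RefSeq gives Hspd1 a pair of start sites and so a pair of windows of 300 bases. One shares 285 bases with the Hspe1 window, and the other shares 4 and holds no match to the element named next. The 250 bases before the Hspe1 start site are shown because one Hspd1 window shares most of them, at chr1:55087898-55088147 (GRCm38.p6, plus strand). Capitals mark 2 overlapping matches to the heat shock element, taken as the units GAA, TTC and GAA with 2 free bases between neighbours and searched on both strands.
Hspe1 promoter: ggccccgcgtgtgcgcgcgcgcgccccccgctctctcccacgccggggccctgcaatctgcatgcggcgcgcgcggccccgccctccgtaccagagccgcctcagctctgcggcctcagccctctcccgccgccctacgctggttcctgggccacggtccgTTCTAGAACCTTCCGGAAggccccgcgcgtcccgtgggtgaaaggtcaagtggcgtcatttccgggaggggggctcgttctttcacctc
The matches span positions -89 to -72, counted with the Hspe1 start site at 0. The element occurs in 0.603% of the 32851 promoter windows in RefSeq. Among the 58 members with a window, Hspd1, Hspe1, Hsph1 and Dnajb6 held it, with log2 ratios of -0.33, 0.48, -0.30 and 0.19. Members without a window, Hspa8, Hsp90aa1, Hsp90ab1 and Hspb2 among them, could not be searched. The 50 measured genes with the element in any window had a median log2 ratio of 0.02, with 5 higher and 3 lower by 1.5-fold or more. By that fold 7.87% of all measured genes were higher and 6.75% lower. A match to these letters is a description and not a shown binding site.

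The other mitochondrial members differed less. Dnaja3, a mitochondrial J protein that works with Hspa9, was at 113 FPKM in Null and 128 FPKM in WT. Dnajc4 was at 95.7 FPKM in Null and 68.3 FPKM in WT (log2 ratio 0.48). Dnajc11, which associates with the complex that shapes the inner membrane, was at 33.7 FPKM in Null and 39.8 FPKM in WT. Dnajc28 was at 18.7 FPKM in Null and 17.6 FPKM in WT, and Dnajc30 at 18.7 FPKM in Null and 16.5 FPKM in WT. Over the 10 genes the median log2 ratio was 0.13, with 2 higher and 1 lower by 1.5-fold or more.

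Dnajc15, Dnajc19 and Hspe1 encode small proteins, as do ribosomal and many respiratory chain genes that were higher in the same pool. The 66 measured ribosomal protein genes had a median log2 ratio of 0.90, and 49 were higher by 1.5-fold or more. The 24 Ndufa and Ndufb genes of respiratory complex I had a median of 0.67, and 17 were higher. Of all measured genes, 7.87% were higher by that fold. What the ribosomal and complex I genes have in common with Dnajc15, Dnajc19 and Hspe1 was not tested. Hspe1, Hspd1, Dnajc19 and Hspa9 also have pseudogenes named in RefSeq, 7 for Hspe1, 5 for Hspd1 and 1 each for Dnajc19 and Hspa9. Reads could be split between a gene and such copies, so those levels are uncertain, as are those of Dnaja1 and Dnajb6, which have 1 named pseudogene each. Only copies named after their gene were counted. Copies under other names were not searched, so levels and ratios of other members, Hspa8, Hsp90aa1 and Hsp90ab1 among them, may be uncertain too.

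**Figure D3:**
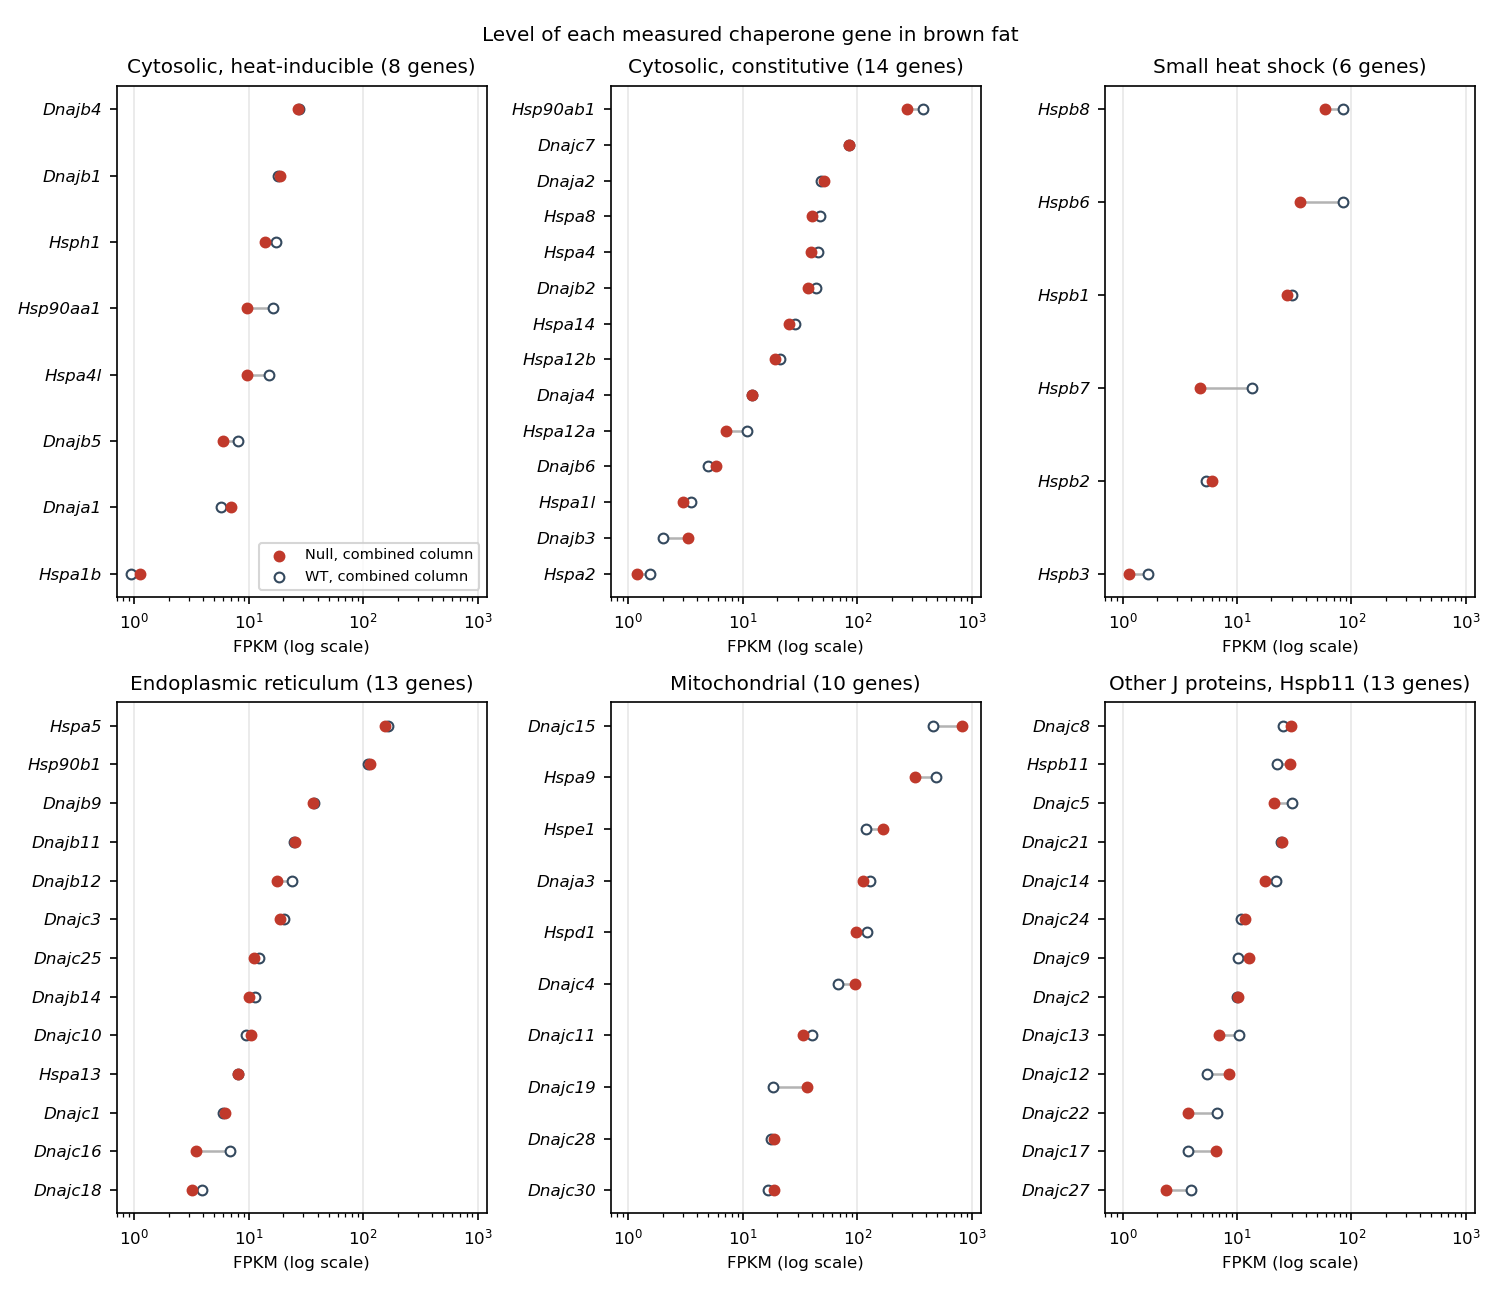
FPKM (horizontal log axis) of each of the 64 measured members in the Null pool (filled red) and the WT pool (open), ordered by mean level within 6 classes, 1 combined value per genotype. Dnajc15 reaches 825 FPKM in Null and 454 FPKM in WT, while Hspa1b lies near 1 FPKM in both.

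The small heat shock proteins included the 2 members that were lowest in Null. Hspb7, a small heat shock protein of heart and skeletal muscle, was at 4.77 FPKM in Null and 13.6 FPKM in WT, or 35.1% of WT. Hspb6, which is abundant in muscle tissues, was at 35.3 FPKM in Null and 85.1 FPKM in WT, or 41.5% of WT. The Hspb6 gene overlaps Lin37 in RefSeq, where 32 of the 72 members overlap another gene. Hspb8, the partner of Bag3 in the selective autophagy of misfolded proteins, was at 58.5 FPKM in Null and 83.7 FPKM in WT (log2 ratio -0.51). Its partner Bag3 was at 16.8 FPKM in Null and 23.4 FPKM in WT (log2 ratio -0.46). Both lay within 1.5-fold as deposited. The Hspb8 ratio passed it with quantile normalization, at -0.63, and with the columns rescaled to the same sum, at -0.73.

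The remaining small heat shock genes were closer to each other in the 2 pools. Hspb1, the widely expressed and heat-inducible member, was at 27.5 FPKM in Null and 30.0 FPKM in WT. Hspb2 was at 6.01 FPKM in Null and 5.36 FPKM in WT, and Hspb3 at 1.13 FPKM in Null and 1.68 FPKM in WT. Both are known from muscle. Hspb2 overlaps its neighbour Cryab in RefSeq, and strand use in counting is not stated, so reads of the pair may not be told apart. Cryab, a crystallin of the same protein family, was at 79.5 FPKM in Null and 133 FPKM in WT (log2 ratio -0.74). Over the 6 measured small heat shock genes the median log2 ratio was -0.42. Past 1.5-fold 2 of these were lower, or 33.3%, where 6.75% of all measured genes were, and 0 higher, where 7.87% were.

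Markers of skeletal muscle fibres stood low in the Null pool together with Hspb6 and Hspb7. All 27 markers of the muscle list, Cryab among them, were measured and none was listed at 0. They summed to 3468 FPKM in Null and 5138 FPKM in WT, and 25 of 27 were lower in Null to some extent. By 1.5-fold or more 19 were lower, or 70.4%, where 6.75% of all measured genes were. The median log2 ratio of the 27 markers was -0.90. Defining markers were present in both pools, with Acta1, skeletal actin, at 320 FPKM in Null and 647 FPKM in WT. The part of muscle fibres in the lower values of Hspb6 and Hspb7 was not tested.

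**Figure D4:**
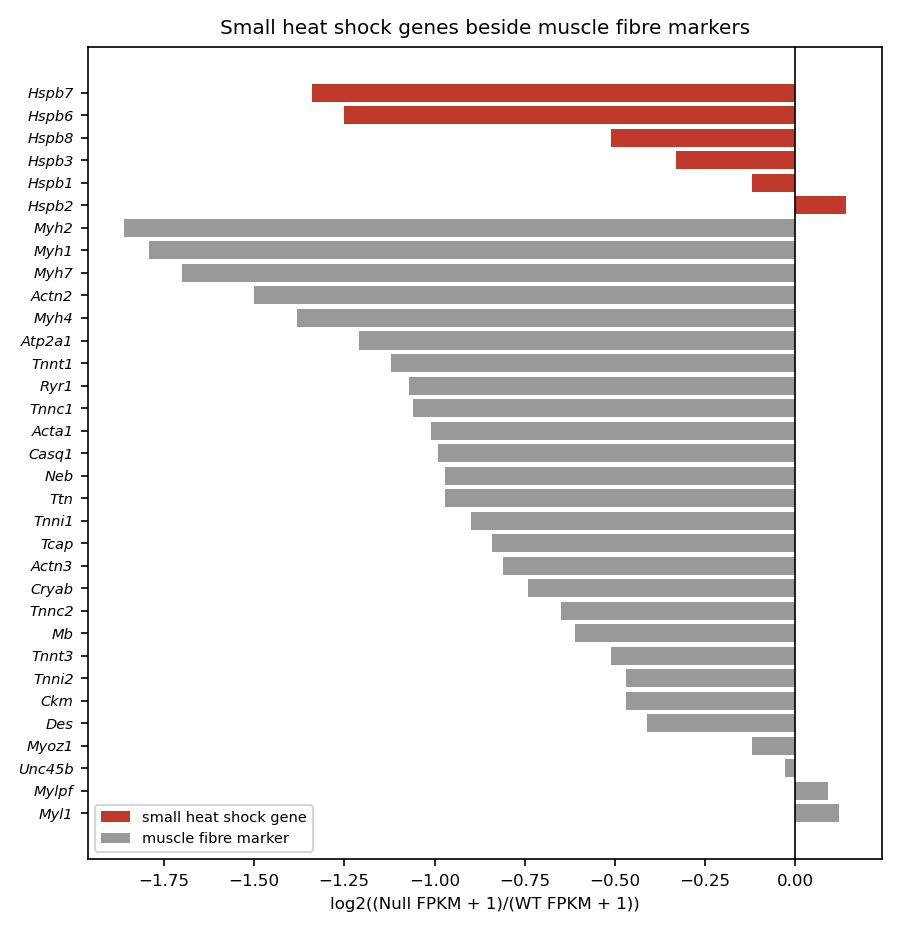
Log2 ratio of Null to WT (horizontal axis, pseudocount of 1 FPKM) for the 6 measured small heat shock genes (red) and 27 muscle fibre markers (grey), each ordered from lowest to highest. Hspb7 at -1.34 and Hspb6 at -1.25 lie within the range of the muscle markers, which runs from -1.86 to 0.12.

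The inducible Hsp70 genes of the cytosol had low values in both pools as deposited. Hspa1b, one of the 2 stress-induced Hsp70 genes, was at 1.12 FPKM in Null and 0.930 FPKM in WT, and Hspa1a was at 0.981 FPKM in Null and 0.950 FPKM in WT. The 2 genes are nearly identical, so each single value is uncertain. Their sum was 2.10 FPKM in Null and 1.88 FPKM in WT. If reads that match both genes were left out, that sum is too low as well, and ratios to it too high. Hspa8, the constitutive Hsp70 of the cytosol, was at 40.2 FPKM in Null and 47.5 FPKM in WT, which was 19.2 times the sum of the inducible pair in Null and 25.3 times in WT. The inducible pair stood close to the filter in both genotypes.

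Of the other heat-inducible genes, Hsp90aa1 and Hspa4l were past 1.5-fold, both with the lower value in Null. Hsp90aa1, the inducible cytosolic Hsp90, was at 9.74 FPKM in Null and 16.4 FPKM in WT, or 59.6% of WT. Hspa4l, a member of the Hsp110 group of exchange factors, was at 9.56 FPKM in Null and 14.9 FPKM in WT. Its log2 ratio was -0.59, only just past the 1.5-fold limit, and was -0.54 with quantile normalization. Its relative Hsph1 was at 13.9 FPKM in Null and 17.3 FPKM in WT (log2 ratio -0.30). Dnajb1, the J protein most closely tied to the heat shock response, was at 18.7 FPKM in Null and 18.1 FPKM in WT. Dnajb4 was at 26.9 FPKM in Null and 27.4 FPKM in WT, Dnajb5 at 6.01 FPKM in Null and 8.12 FPKM in WT, and Dnaja1 at 6.93 FPKM in Null and 5.73 FPKM in WT. Over the 8 measured genes the median log2 ratio was -0.16, with 0 higher and 2 lower.

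None of the 14 measured constitutive cytosolic genes differed by 1.5-fold on the log2(FPKM + 1) scale as deposited, and their median log2 ratio was -0.17. Hsp90ab1, the constitutive Hsp90 and the third most abundant member, was at 269 FPKM in Null and 375 FPKM in WT (log2 ratio -0.48). Its ratio passed 1.5-fold in 2 other scalings, at -0.72 with quantile normalization and -0.69 with the columns rescaled to the same sum. It was 27.6 times as abundant as Hsp90aa1 in Null and 22.9 times in WT. Dnajc7, a J protein that binds both Hsp70 and Hsp90, was at 84.3 FPKM in Null and 84.6 FPKM in WT. Dnaja2, a main J protein partner of Hspa8, was at 51.4 FPKM in Null and 48.5 FPKM in WT, and the exchange factor Hspa4 was at 39.4 FPKM in Null and 44.9 FPKM in WT. The class ranged from a log2 ratio of -0.53 for Hspa12a to 0.52 for Dnajb3, which lies within the Ugt1a genes in RefSeq.

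Among the distant Hsp70 relatives, Hspa12b, known from blood vessel endothelium, was at 18.9 FPKM in Null and 21.0 FPKM in WT. The 5 endothelial markers summed to 238 FPKM in Null and 190 FPKM in WT, with Cldn5 the only one of them past 1.5-fold. Whether vessel content bears on the Hspa12b value was not tested.

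Across compartments, Hspa genes, the exchange factors Hspa4 and Hspa4l included, leaned one way. Of the 12 measured Hspa genes, 11 had a lower value in Null and 1, Hspa1b, a higher one. Their log2 ratios ran from -0.61 to 0.13, with a median of -0.18. Hspa1a, just below the filter, had a log2 ratio of 0.02. With quantile normalization Hspa13 also had a higher value in Null, at 0.03. Among all measured genes 5730 of 11597 had a ratio below 0. By 1.5-fold or more 2 of the 12, Hspa9 and Hspa4l, were lower, or 16.7%, where 6.75% of all measured genes were. The 25 measured Dnajc genes were split, with 14 above and 11 below 0, and 3 higher and 2 lower by 1.5-fold or more.

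The main chaperones of the ER stood at nearly the same level in both pools as deposited. Hspa5, the ER Hsp70 known as BiP, was at 156 FPKM in Null and 165 FPKM in WT (log2 ratio -0.08). The Hspa5 ratio was -0.26 with quantile normalization. It was -0.30 with the columns rescaled to the same sum, where the median of all genes was -0.19. Hsp90b1, the ER Hsp90, was at 114 FPKM in Null and 109 FPKM in WT (log2 ratio 0.06). The ER J proteins Dnajb9, Dnajb11, Dnajc3 and Dnajc10 had log2 ratios of -0.02, 0.01, -0.11 and 0.12. Dnajb9 and Dnajc3 are classical products of the unfolded protein response. Over the 13 genes, all of which were measured, the median log2 ratio was -0.08. Past 1.5-fold 0 were higher, where 7.87% of all measured genes were, and 1 lower, or 7.69%, where 6.75% were. The one lower gene was Dnajc16, a J protein of the ER membrane, at 3.47 FPKM in Null and 6.81 FPKM in WT, or 51.0% of WT. Dnajb12, a membrane J protein that acts in ER-associated degradation, had a log2 ratio of -0.40, and its relative Dnajb14 one of -0.17.

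The promoters of 3 ER members held the ER stress response element, taken as CCAAT and CCACG with 9 free bases between them, which stands in 0.119% of the promoter windows on either strand. They are shown because these genes had nearly equal levels in both pools as deposited. The element is in capitals, within the 250 bases before the start site of each (RefSeq, GRCm38.p6): Hspa5 at chr2:34771840-34772089 on the plus strand, Hsp90b1 at chr10:86705445-86705694 on the minus strand and Dnajc3 at chr14:118937682-118937931 on the plus strand.
Hspa5 promoter: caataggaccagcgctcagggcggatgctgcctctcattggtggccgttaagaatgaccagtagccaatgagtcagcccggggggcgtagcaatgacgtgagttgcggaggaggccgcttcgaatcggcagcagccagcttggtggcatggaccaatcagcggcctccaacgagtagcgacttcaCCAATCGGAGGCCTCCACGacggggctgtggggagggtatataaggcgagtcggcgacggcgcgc
Hsp90b1 promoter: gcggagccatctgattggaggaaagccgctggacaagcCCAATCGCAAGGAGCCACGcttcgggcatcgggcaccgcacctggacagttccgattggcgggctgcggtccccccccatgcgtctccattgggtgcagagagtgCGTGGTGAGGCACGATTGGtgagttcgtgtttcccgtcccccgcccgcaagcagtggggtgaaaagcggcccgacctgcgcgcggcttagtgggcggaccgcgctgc
Dnajc3 promoter: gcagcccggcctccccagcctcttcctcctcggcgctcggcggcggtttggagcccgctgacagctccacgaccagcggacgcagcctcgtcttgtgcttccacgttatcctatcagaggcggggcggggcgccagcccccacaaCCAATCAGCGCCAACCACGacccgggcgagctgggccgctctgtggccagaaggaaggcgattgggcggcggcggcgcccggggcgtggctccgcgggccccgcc
The Hsp90b1 promoter held 2 matches, 1 on each strand. The 13 measured genes with the element in any window had a median log2 ratio of -0.02, with 0 higher and 2 lower by 1.5-fold or more. By that fold 7.87% of all measured genes were higher and 6.75% lower. The compact form, ATTGG and CCACG with 1 free base between them, was found in 0.0365% of windows, that of Dnajb11 among them.

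The J proteins with specialised tasks went both ways. Dnajc17, a J protein of the splicing machinery, was at 6.52 FPKM in Null and 3.72 FPKM in WT, a ratio of 1.75, and its log2 ratio of 0.67 was 0.53 with the columns rescaled to the same sum. It overlaps Zfyve19 in RefSeq. Dnajc22 was at 3.75 FPKM in Null and 6.63 FPKM in WT, or 56.7% of WT. Just short of 1.5-fold on the log2(FPKM + 1) scale were Dnajc12, a cofactor of aromatic amino acid hydroxylases, at 8.43 FPKM in Null and 5.48 FPKM in WT, and Dnajc27 at 2.41 FPKM in Null and 3.94 FPKM in WT. Dnajc13, a large protein of endosome sorting, was at 6.97 FPKM in Null and 10.4 FPKM in WT, and Dnajc5, which guards synaptic and secretory vesicle proteins, at 21.1 FPKM in Null and 30.0 FPKM in WT. The members tied to ribosomes, Dnajc2 and Dnajc21, had log2 ratios of 0.05 and 0.04. Over the 13 measured genes of the class, Hspb11 of the cilium transport machinery included, the median was 0.05.

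Outside these families, 4 lists of folding genes were described. For comparison, 7.87% of all measured genes were higher and 6.75% lower by 1.5-fold or more. Of 25 cytosolic cofactors and regulators, 24 were in the table and measured, with a median log2 ratio of -0.04. Hsf1, the main regulator of the heat shock response, was at 15.8 FPKM in Null and 17.6 FPKM in WT. The most abundant were Bag1, an Hsp70 exchange factor, at 347 FPKM in Null and 282 FPKM in WT, and Hsbp1, a small Hsf1-binding protein, at 193 FPKM in Null and 149 FPKM in WT. By 1.5-fold or more, 1 was higher and 0 were lower. The higher one was Ptges3, the Hsp90 cochaperone p23, at 27.5 FPKM in Null and 15.5 FPKM in WT.

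The 8 genes of the cytosolic chaperonin TRiC, which folds actin and tubulin, all lay within 1.5-fold, with a median log2 ratio of -0.07. Cct5 was at 102 FPKM in Null and 109 FPKM in WT, and Tcp1 at 84.0 FPKM in Null and 89.0 FPKM in WT.

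Of 17 ER folding and stress genes, 0 were higher and 1 was lower past 1.5-fold, and the median log2 ratio was 0.08. The lower one was Ern1, the sensor Ire1, at 1.30 FPKM in Null and 3.21 FPKM in WT. The most abundant were the collagen chaperone Serpinh1, at 181 FPKM in Null and 164 FPKM in WT, and Calr, calreticulin, at 146 FPKM in Null and 138 FPKM in WT.

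Of 9 further mitochondrial folding and protease genes, 1 was higher and 1 lower past 1.5-fold, and the median log2 ratio was -0.03. Hscb, a J protein of iron-sulphur cluster assembly, was at 47.8 FPKM in Null and 25.1 FPKM in WT. Lonp1, the matrix protease, was at 72.1 FPKM in Null and 110 FPKM in WT. Trap1, the mitochondrial Hsp90, was at 154 FPKM in Null and 198 FPKM in WT, and the protease subunit Clpp at 152 FPKM in Null and 106 FPKM in WT. Trap1 and Clpp lay within 1.5-fold.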

How the data were processed

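Brown fat mRNA was measured in 3 Null and 3 WT samples. The authors deposited FPKM, fragments scaled by transcript length and library size, in 1 column per genotype. The file headers give tissue and genotype but no replicate, so each column was taken to combine the 3 samples. Pooling or averaging, annotation, strand use and depth are not stated there. Per the submitters' processing notes, the build was mm9 and the tools included CASAVA, TopHat, BWA, edgeR and DESeq. The deposited microRNA signal, headed RPM, was used only to check the genotype.

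From these values log2((Null + 1)/(WT + 1)) was computed (Python 3.11.15, pandas 2.3.3), with a pseudocount of 1 FPKM and a filter of a mean of at least 1 FPKM. It understates the change of low genes. A gene was counted at 1.5-fold or more. No test was possible with 1 value per genotype, so the linear model foreseen for separate columns was not run. The calculation was tested on simulated data. Any member could be named. Values were always printed for those past that fold, the 10 most abundant, the main Hsp70, Hsp90 and Hsp60 genes and those listed at 0 in 1 column, and for others where a sentence turned on them. Pathway genes were named past that fold or among the highest 2 of a list. The exceptions were Hsf1, Bag3, Timm44 and Grpel1, named for their roles after their values had been seen. The members and lists were chosen with earlier results of these data known. Alternatives changed the pseudocount, the filter, the scaling and the fold.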

Additional observations from a re-analysis of the deposited data

How the results depend on the processing

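No paired analysis was possible because each genotype has 1 combined column. For the same reason no replicate could be left out, and depth is unknown. The alternative by protein length was not run, as no lengths were at hand. With a pseudocount of 0.1 FPKM, 5 members were higher in Null by 1.5-fold or more (7.81%, against 10.3% of all genes) and 9 lower (14.1%, against 9.15%), and the small heat shock median lay at -0.53 relative to that of all genes, against -0.43 as reported. With the columns rescaled to the same sum 15 members were lower in Null (23.4%, against 15.8% of all genes). After subtracting the median of all genes, a setting added after seeing the data, 8 were lower (12.5%, against 7.84%) and 4 higher (6.25%, against 8.82%). With no filter on low values the heat-inducible cytosolic median lay at -0.02 relative to all genes, against -0.17, and with a mean of at least 5 FPKM at -0.31, since Hspa1a enters and Hspa1b leaves. At 2-fold 0 members were higher and 2 lower. The cause of the other shifts was not tested. The other class and list medians moved by 0.1 or less on the log2 scale under these settings and under quantile normalization. No member past 1.5-fold changed direction in any scaling or pseudocount.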

Other observations

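Other families of folding factors, described after their values were seen, had medians above 0. Among all measured genes, 7.87% were higher and 6.75% lower by 1.5-fold or more. All 4 measured prefoldin genes, whose products hand new actin and tubulin chains to TRiC, were higher to some extent in Null, and 3 by 1.5-fold or more. Pfdn5 was at 177 FPKM in Null and 72.7 FPKM in WT, and Pfdn2 at 103 FPKM in Null and 87.9 FPKM in WT. Of the 12 measured Fkbp genes, proline isomerases, 1 was higher by 1.5-fold or more and 0 were lower, with a median log2 ratio of 0.13. Fkbp7 of the ER was at 58.4 FPKM in Null and 37.7 FPKM in WT. The 8 cyclophilin genes had a median of 0.14, and by 1.5-fold or more 2 were higher and 0 lower. The higher ones were Ppic, at 24.3 FPKM in Null and 15.5 FPKM in WT, and Ppih, at 2.26 FPKM in Null and 1.09 FPKM in WT.

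The 11 measured Timm genes of mitochondrial protein import had a median log2 ratio of 0.19, with 2 higher and 0 lower by 1.5-fold or more. Timm8b, a small chaperone between the mitochondrial membranes, was the most abundant, at 381 FPKM in Null and 253 FPKM in WT. Timm44, which anchors Hspa9 to the import channel, was at 119 FPKM in Null and 115 FPKM in WT. The 5 tubulin folding cofactors had a median of 0.24, with Tbca at 170 FPKM in Null and 107 FPKM in WT. Many prefoldin and Timm proteins are small, like the ribosomal proteins whose genes had a median of 0.90. The small heat shock genes had a median of -0.42. The part of protein size was not tested.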
